A study of Mus musculus with 4 samples.

Results

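The genes described here carry a zinc finger name of the Zfp, Zbtb, Zscan or Zkscan series. They were taken from the authors' list of probes called changed by berberine, wherever a row held 1 such symbol, and were measured by 239 of the 26423 probes on the array. The 239 probes stand for 220 of the 8519 genes that the list names, made up of 186 Zfp, 21 Zbtb, 7 Zscan and 6 Zkscan genes. A row of the same list with several symbols was left out in 2 cases. Zinc finger genes that the authors had not called carry no name in the files used here, so nothing is said of them.

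Most of these genes encode C2H2 zinc finger proteins, in which short loops held by a zinc ion each read a few bases of DNA. Many Zfp proteins also carry a KRAB domain, which recruits the corepressor TRIM28 and with it histone methylation. Zbtb proteins carry a BTB domain for dimerisation and corepressor binding, and Zscan and Zkscan proteins a SCAN domain for dimerisation. The Zfp symbol is broader than the family: Zfp185 encodes a LIM domain protein, and Zfp259 (now Zpr1) a zinc finger protein of another class.

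The cells were C17.2, multipotent neural progenitors of the mouse kept as an immortalised line. In the berberine group, 2 samples had received 7.38 mM AAPH, an azo compound that releases peroxyl radicals, together with 1.69 µM berberine, a plant alkaloid, for 12 h. In the control group, 2 samples had received 7.38 mM AAPH alone for 12 h, so both groups were damaged cells and neither was untouched. Each sample's labelled RNA was read on 1 single-colour array, 4 arrays in all. The labels do not say whether the samples of a group were separate cultures, so the p-values measure only the spread between these samples. The question put by the design is what berberine changes in progenitors under AAPH damage. With RNA from whole cultures, fewer cells of a kind and less RNA per cell cannot be told apart.

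The median intensity over all probes was 189 and 206 on the berberine arrays, against 333 and 273 on the control arrays. Values on the log2 scale correlated at 0.974 between the berberine arrays, at 0.967 between the control arrays and at 0.810 to 0.830 across groups. Of 16 progenitor markers 7 carried a name. Sox9 read 13 and 36 with berberine and 1091 and 897 in controls, at least 8.26-fold lower, and Hes1 read 90 and 188 with berberine and 3162 and 2667 in controls, at least 18.8-fold lower. Id4, Bmi1 and Id2 also fell, Prom1 rose, at 591 and 639 with berberine and 283 and 236 in controls, and Msi1 did not pass. Nes, Sox2 and Pax6 were not among the named probes. The summed intensity of the 7 was 4019 and 4412 on berberine arrays, against 21138 and 18304 on control arrays. The sum over 4 fibroblast markers was 10408 and 7479 with berberine and 23513 and 18532 in controls, and over 7 oligodendrocyte markers 84758 and 68439 with berberine and 30108 and 24458 in controls. Sox10, at 40892 and 35984 with berberine, and Mog, at 33918 and 23702, made up most of the oligodendrocyte sum. Olig1, Olig2, Mbp and Cspg4 did not pass. Only markers that the authors had called are named, and 30.1% of single-symbol probes outside the zinc finger series were called higher and 45.1% lower. Of the named progenitor markers 1 rose and 5 fell, of the fibroblast markers 1 rose and 3 fell, and of the oligodendrocyte markers 3 rose and 0 fell. Rises and falls numbered 2 and 2 of 7 neuron markers, 1 and 0 of 5 astrocyte markers, 1 and 1 of 2 microglia markers and 0 and 0 of 3 endothelial markers. No marker in these lists was at 0 on any array. Their part in the zinc finger results was not tested.

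With berberine, zinc finger probes split into rises and deeper falls, as did the other probes of the authors' list. On the intensities as deposited, 86 of the 239 probes rose, 89 fell and 64 did not pass, in limma's test with Benjamini-Hochberg adjustment over all probes at a threshold of 0.05. In genes, each taken at its brightest probe, 80 rose, 80 fell and 60 did not pass. The median rise among the 86 was 1.47 on the log2 scale, and the median fall among the 89 was −3.18. Of the 89 falls 25 were of 16-fold or more, against 1629 of 4039 falls among other single-symbol probes of the list. Of the 86 rises 11 were of 4-fold or more, against 481 of 2690 rises among those other probes. The 64 probes that did not pass all had a positive difference, up to 1.38. The authors' threshold was set on a ratio that lay a median of 0.62 above these differences. Neither the lack of small falls nor the smaller size of the rises is therefore read as a result. Counted by sign alone, 150 probes were higher with berberine and 89 lower.

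These counts stand against a background in which 33.2% of all 26423 probes were called, 13.4% higher and 19.8% lower. Among the 8951 other single-symbol probes of the authors' list, 75.2% were called, 30.1% higher and 45.1% lower. The authors had selected every one of these probes on the same arrays, so the share of zinc finger probes called is a description and nothing is read from it. The 2 berberine arrays lay entirely above the 2 control arrays for 138 zinc finger probes and entirely below them for 89. Over all probes, 35.3% lay above and 31.6% below.

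The number of rises depends on how the arrays are scaled. The sign of each of the 239 probes was the same on the 3 scales tried. Of the 8951 other single-symbol probes of the list, 8944 kept their sign after quantile normalization and 8928 after median centring. The list admits only probes past the authors' threshold, so the kept signs are not read as a result. After quantile normalization, 150 zinc finger probes rose and 89 fell, where 40.2% of all probes were called higher and 22.5% lower. On that scale 99.7% of the other single-symbol probes of the list were called. Rises made up 62.8% of zinc finger calls after quantile normalization, 49.1% on the deposited scale and 61.7% after median centring. Over all probes on the array, rises made up 64.15%, 40.3% and 66.79% of calls, in the same order. Over all probes the median log2 difference was 0.13 on the deposited scale, 0.39 after quantile normalization and 0.74 after centring, and each difference is to be read against the shift on its own scale. Over the zinc finger probes the median was 0.71 on the deposited scale and 1.41 after quantile normalization. Over the other single-symbol probes of the list, selected by the same threshold, it was 0.35 and 1.17. Leaving out 1 array cut both counts: 1 rise and 52 falls were called without berberine replicate 1, 2 and 57 without berberine replicate 2, 6 and 48 without control replicate 1, and 11 and 72 without control replicate 2. Without a berberine array, the fit gave Zbtb10 and Zfp280b the same SE of 1.00, against 0.284 and 0.279 with every array. An SE shared in this way leaves the call to the size of a difference. A call lost in such a fit does not show that rises are less stable than falls.

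**Figure D1:**
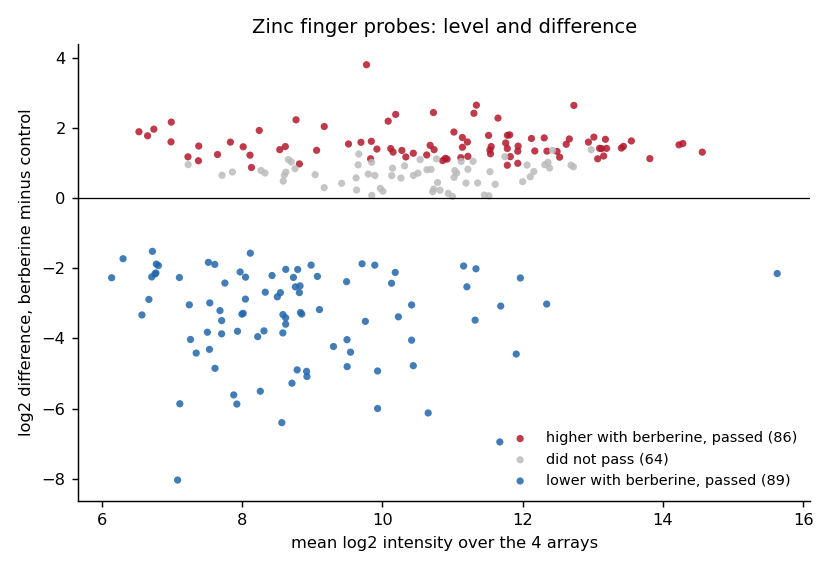
Each point is 1 of the 239 zinc finger probes, with its mean log2 intensity over the 4 arrays on the horizontal axis and its log2 difference, berberine minus control, on the vertical axis. The 86 rises reach 3.80, while the 89 falls run from −1.52 to −8.04, and no point lies between −1.52 and 0. The list admits only probes past a threshold on the authors' ratio, which exceeds the plotted difference by a median of 0.62. The gap is therefore not read as a result.

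The list holds only probes past a threshold of the authors. In the authors' deposited table every zinc finger probe has a log2 ratio of more than 1 in size, with a p-value of at most 0.0466. The ratio in the authors' deposited table exceeds the difference of the deposited intensities by a median of 0.62 over these probes. It is thus not the ratio of the printed group means, and no source used here describes the step between them. Its median departure from the difference after quantile normalization was −0.03. The authors' selection thus lies close to the quantile scale, and the passing of all 239 probes on that scale is not read as a result. The probes nearest to its threshold of 1 were Zbtb10, Zfp280b and Zfp882, with ratios of 1.0006, 1.0029 and 1.0061 in the authors' deposited table. On the deposited scale Zbtb10 differed by 0.08 ± 0.284 and Zfp280b by 0.06 ± 0.279 (SE), and the arrays of both groups overlapped for both genes. Zfp882 read 286 and 243 with berberine and 171 and 165 in controls, and did not pass (adjusted p from limma 0.106). Probes just outside the threshold have no name and cannot be given.

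With each gene taken at its brightest probe, the deepest falls were of genes bright in controls. The lowest fitted value of all, −8.04, belongs to the second probe of Zfp869, which read 2 and 35 with berberine and 2287 and 2115 in controls, at least 18.4-fold lower. Zfp664 had intensities of 267 and 324 with berberine, against 37570 and 35316 in controls. It was 124-fold lower (log2 −6.95 ± 0.233 SE, n = 2 per group, adjusted p from limma 0.00137). Zfp740 read 189 and 197 with berberine and 14659 and 12388 in controls, a 69.8-fold fall (log2 −6.13 ± 0.227). Both remained above the array background with berberine by the authors' detection p-value, and in neither did any berberine array come near a control array.

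For the 6 other genes with the deepest fitted falls, the probe was detected in controls but not well above background with berberine, a detection p-value of 0.01 or more. For these the fall is given as a bound, the control mean against each berberine array's lowest detected intensity (127 and 113), or against the probe itself where that was brighter. Zfp367 read 110 and 136 with berberine and 8094 and 7567 in controls, and was at least 59.5-fold lower. Zfp511, at 31 and 55 with berberine and 3792 and 3219 in controls, was at least 29.2-fold lower. Zfp187, now Zscan26, read 71 and 64 with berberine and 3012 and 2270 in controls, at least 21.8-fold lower.

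The other 3 had weaker control signals and smaller bounds. Zfp524 read 61 and 34 with berberine and 2215 and 1935 in controls, at least 17.3-fold lower. Zfp238, now Zbtb18, a repressor needed for cortical neurogenesis in mice, read 22 and 46 with berberine and 2095 and 1659 in controls. It was at least 15.6-fold lower. Zfp959 read 20 and 57 with berberine and 1868 and 1461 in controls, at least 13.8-fold lower. Its call alone among the 8 was lost when an array was left out (adjusted p from limma 0.0619 without control replicate 1). The fitted log2 differences of the 6 ran from −5.28 to −6.40 with adjusted p from limma of 0.00137 to 0.00581, and their order carries no meaning below the detection limit. Of the 89 falling probes, 50 were detected in controls only and 39 in both groups. Probes detected in controls only made up 20.9% of the 239 zinc finger probes and 18.6% of the 8951 other single-symbol probes of the list.

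The largest rise was that of Zfp57, a KRAB protein that binds methylated imprinting control regions and keeps their methylation in the embryo. It had intensities of 4375 and 2450 with berberine, against 253 and 218 in controls. It was 13.9-fold higher (log2 3.80 ± 0.370 SE, n = 2 per group, adjusted p from limma 0.00485), and the berberine arrays differed from each other more than the control arrays did. Its call was lost without control replicate 1 (adjusted p 0.0521 in the limma fit).

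Zscan29, a SCAN domain gene, read 6955 and 6074 with berberine and 1237 and 868 in controls, 6.27-fold higher. Zfp352, a gene of the early mouse embryo, read 16651 and 17339 with berberine and 3412 and 2173 in controls, 6.24-fold higher. Zbtb1, which is needed for lymphocyte development, read 6288 and 5451 with berberine and 1219 and 986 in controls, 5.34-fold higher. In each of these genes the lowest berberine array was well above the highest control array.

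Zfp827 read 3312 and 2159 with berberine and 576 and 455 in controls, 5.22-fold higher. In humans its product recruits a chromatin remodelling complex to telomeres. Zfp61 read 7349 and 6829 with berberine and 1587 and 1340 in controls, 4.86-fold higher. Zfp316 read 954 and 940 with berberine and 220 and 185 in controls, 4.69-fold higher. Zfp697 was 5.42-fold higher on its brightest probe, at 4136 and 3778 with berberine and 700 and 760 in controls, while its other probe fell. Adjusted p from limma for the 7 rises after Zfp57 ran from 0.00393 to 0.0113. Each lost its call in at least 1 of the 4 fits without an array: the highest adjusted p over those fits was 0.0732 for Zscan29, 0.0658 for Zfp352, 0.105 for Zfp697, 0.119 for Zbtb1, 0.144 for Zfp316 and 0.141 for Zfp61, and Zfp827 was called in 0 of them.

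**Figure D2:**
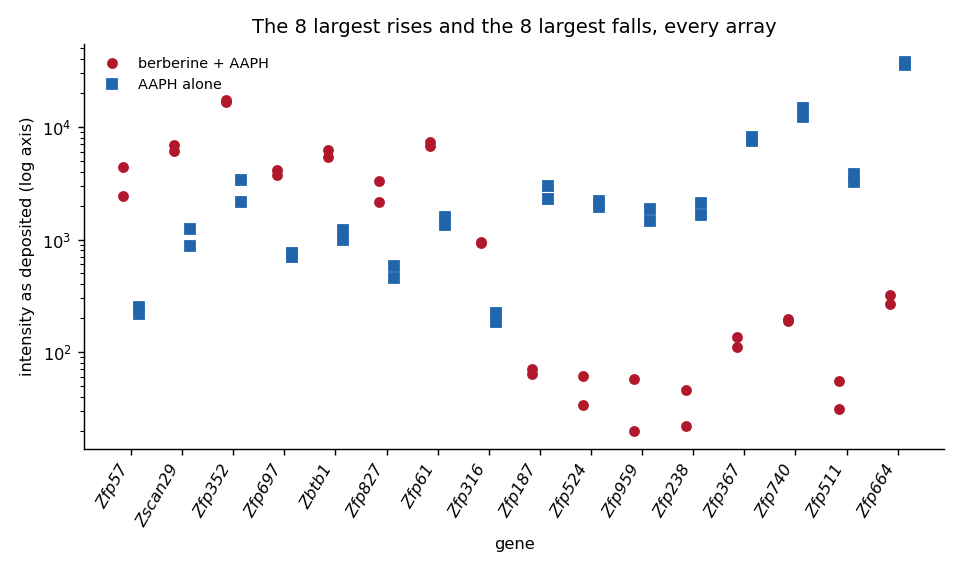
Intensity as deposited, on a log axis, of the 8 largest rises and 8 largest falls among zinc finger genes, 1 point per array, with berberine plus AAPH as red circles left of AAPH alone as blue squares. No pair of groups overlaps, and most of the falling genes sit below 200 with berberine.

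The promoters of 4 of these genes are shown because 2 rose, 2 fell and each holds a motif that is searched below. They are the 250 bases before the annotated start of RefSeq's GRCm38.p6 annotation, given 5′ to 3′ on the gene's strand. Capitals mark matches on either strand, to the ETS motif CCGGAAGT in Zscan29 and Zfp316 and to the SP1 motif GGGGCGGGG in Zfp664 and Zfp740. Zscan29 lies at chr2:121171126-121171375 on the minus strand, Zfp316 at chr5:143270023-143270272 on the minus strand, Zfp664 at chr5:124862455-124862704 on the plus strand and Zfp740 at chr15:102203750-102203999 on the plus strand.
Zscan29: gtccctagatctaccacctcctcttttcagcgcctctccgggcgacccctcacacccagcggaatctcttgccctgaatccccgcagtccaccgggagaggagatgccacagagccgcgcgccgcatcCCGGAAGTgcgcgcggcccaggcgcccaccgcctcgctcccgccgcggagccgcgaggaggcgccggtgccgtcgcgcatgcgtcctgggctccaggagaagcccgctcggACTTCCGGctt
Zfp316: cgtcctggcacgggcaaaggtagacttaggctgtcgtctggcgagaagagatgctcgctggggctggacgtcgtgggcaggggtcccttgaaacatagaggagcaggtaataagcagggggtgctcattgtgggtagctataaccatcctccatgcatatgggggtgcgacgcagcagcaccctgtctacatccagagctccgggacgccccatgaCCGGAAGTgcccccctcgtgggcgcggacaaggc
Zfp664: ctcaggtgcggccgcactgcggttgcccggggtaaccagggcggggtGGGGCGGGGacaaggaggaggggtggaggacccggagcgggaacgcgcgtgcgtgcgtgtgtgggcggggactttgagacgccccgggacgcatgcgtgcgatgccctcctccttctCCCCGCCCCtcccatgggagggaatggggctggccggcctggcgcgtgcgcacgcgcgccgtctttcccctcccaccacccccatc
Zfp740: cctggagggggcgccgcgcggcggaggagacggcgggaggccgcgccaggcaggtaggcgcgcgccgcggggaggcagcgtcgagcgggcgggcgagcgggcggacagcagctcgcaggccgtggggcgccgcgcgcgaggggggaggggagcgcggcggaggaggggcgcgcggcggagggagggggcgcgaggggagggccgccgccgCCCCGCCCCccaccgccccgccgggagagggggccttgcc

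RefSeq promoters were matched for 182 of the 220 genes, in 228 windows of 300 bases that run 250 before to 50 after each start. A gene with several annotated starts gives several windows, which can overlap, so the windows counted below are not independent. The ETS motif was found in 12.1% of 91 windows of 70 genes that rose and in 6.58% of 76 windows of 63 genes that fell. It stood in 11% of the windows of all matched zinc finger genes and in 3.89% of all 32851 promoters in the table. The CRE motif TGACGTCA was in 6.59% of windows of rising genes, 5.26% of falling genes and 1.79% of all promoters. SP1 matches were in 15.4%, 15.8% and 11.4% of windows, in the same order. The ZNF143 motif was in 1.1% of windows of rising genes (1 window) and 6.58% of falling genes (5 windows), against 1.01% of all promoters. The YY1 motif was in 4 windows of rising genes, 0 of falling genes and 0.852% of all promoters. The E-box CACGTG, the CCAAT box and the TATA motif TATAAA were in 7.02%, 43% and 7.89% of zinc finger windows, against 7.15%, 37.4% and 13.6% of all promoters. Matches are letters in a window and do not show binding. The median ratio of observed to expected CpG was 0.695 in zinc finger windows and 0.384 in all promoters.

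Among the zinc finger genes with known parts in the nervous system, 13 were measured, of which 7 fell, 3 rose and 3 did not pass. Counts in this and the following lists stand beside those of the other single-symbol probes of the authors' list. Of those, 45.1% were called lower and 30.1% higher. Zfp219 read 161 and 195 with berberine and 6013 and 4851 in controls, 30.5-fold lower (log2 −4.93 ± 0.256 SE, adjusted p from limma 0.00143). Zfp703, of the Nolz family, read 828 and 820 with berberine and 19755 and 16342 in controls, 21.8-fold lower. Zfp462, also tied to pluripotency, read 148 and 144 with berberine and 2962 and 2539 in controls. It was not well above background with berberine and at least 18.8-fold lower. Zfp335, a gene of neural progenitor proliferation whose loss causes microcephaly in humans, read 112 and 115 with berberine and 1548 and 1215 in controls, at least 11.4-fold lower.

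Smaller falls in this list were those of Zbtb45, at 200 and 163 with berberine and 1240 and 879 in controls, and Zfp9, at 462 and 416 with berberine and 1805 and 1430 in controls. Zbtb45 acts in glial differentiation. The 7th fall is Zfp238, described above. The 3 rises were of other family members. Zfp191, now Zfp24, which oligodendrocytes need to myelinate, read 17586 and 13031 with berberine and 5234 and 3941 in controls, 3.33-fold higher (log2 1.74 ± 0.297 SE, adjusted p from limma 0.0194). Zfp365, whose product binds DISC1, read 22269 and 15357 with berberine and 7607 and 5828 in controls. Zfp503, the Nolz family member of the developing striatum, read 708 and 509 with berberine and 245 and 217 in controls, 2.6-fold higher.

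Zfp521, Zfp536 and Zfp804a did not pass. Zfp521, a driver of early neural progenitor fate, differed by 0.79 ± 0.285 on the log2 scale and Zfp536, a brake on neuronal differentiation, by 0.85 ± 0.225. Zfp804a read 1828 and 2096 with berberine and 1906 and 1478 in controls, and its groups overlapped. After quantile normalization these 3 passed as higher, with log2 differences of 1.54, 1.84 and 1.24. The list's median log2 difference was −1.87, which is the value of the single gene Zfp9. The next gene above Zfp9 was Zfp804a at 0.22, so the median of this short list hangs on 1 gene. Medians were 0.71 over all zinc finger probes, 0.35 over the other single-symbol probes of the authors' list and 0.13 over all probes. No test between them was run.

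Of 12 measured genes tied to pluripotency, imprinting or retroelement control, 6 rose, 3 fell and 3 did not pass, with a median log2 difference of 0.89. Beside Zfp57 and Zfp352, Zfp809, which silences retroviruses in embryonic stem cells, read 7742 and 4976 with berberine and 2652 and 2280 in controls. It was 2.52-fold higher (log2 1.34 ± 0.317 SE, adjusted p from limma 0.0431). Zfp568, which represses a placental Igf2 transcript, read 9138 and 5932 with berberine and 3272 and 2578 in controls, 2.54-fold higher.

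Zfp281, a stem cell regulator, read 21413 and 21155 with berberine and 10317 and 9227 in controls, 2.18-fold higher. Zfp263 read 37236 and 38955 with berberine and 17013 and 13881 in controls, 2.48-fold higher. Zscan10, Zfp296 and Zfp708 had log2 differences of 0.59, 0.39 and 0.65 and did not pass. The falls were Zfp462, Zfp143 and Zfp445. Zfp143, an activator that binds many promoters, read 197 and 185 with berberine and 1239 and 946 in controls, 5.67-fold lower. Zfp445, which guards imprints together with Zfp57, fell 5.77-fold on its brightest probe, at 1181 and 820 with berberine and 6692 and 4822 in controls. Its other probe, at 2133 and 1997 with berberine and 1638 and 1404 in controls, did not pass and had the opposite sign.

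The BTB list held 12 measured genes, of which 3 rose, 2 fell and 7 did not pass. Zbtb46, a factor of classical dendritic cells, read 1848 and 1404 with berberine and 581 and 474 in controls, 3.07-fold higher (log2 1.62 ± 0.272 SE, adjusted p from limma 0.0187). Zbtb48, a telomere-binding protein, read 5117 and 4644 with berberine and 2773 and 2341 in controls, 1.91-fold higher. The third rise was Zbtb1, and the falls were Zbtb45 and Zfp238.

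The 7 others all had positive differences, of 0.08 for Zbtb10, 0.47 for Zbtb7a, 0.82 for Zbtb5, 0.86 for Zbtb17, 1.02 for Zbtb7b, 1.02 for Zbtb40 and 1.38 for Zbtb11. Zbtb17 encodes the MYC partner Miz-1, and Zbtb7b the factor ThPOK of helper T cells. Zbtb11 read 17013 and 9940 with berberine and 5407 and 4633 in controls, so its groups did not overlap although it missed the threshold (adjusted p from limma 0.0522). All 7 passed as higher after quantile normalization. Over all 22 Zbtb probes 10 rose and 3 fell, against 70 rises and 82 falls among 202 Zfp probes, and no test of that difference was run. The split goes by the printed symbol, so the fall of Zfp238, now Zbtb18, is counted among the Zfp probes. The falls of Zbtb probes were Zbtb45, Zbtb12 and Zbtb6, the last 2 named after their values were seen.

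Some genes with a zinc finger name act on RNA or on proteins. Of 6 measured, 4 rose, 1 fell and 1 did not pass. Zfp207, a microtubule-binding protein of the spindle, read 5757 and 5138 with berberine and 1747 and 1423 in controls, 3.45-fold higher (log2 1.79 ± 0.241 SE, adjusted p from limma 0.0109). Zfp385a, a p53 cofactor that also binds RNA, read 8143 and 7976 with berberine and 2643 and 2330 in controls, 3.25-fold higher. Zfp346, which binds double-stranded RNA, was 2.97-fold higher on its brighter probe and Zfp830, a splicing factor, 2.51-fold higher. The other Zfp346 probe read 2023 and 1525 with berberine and 1131 and 763 in controls. It had the same sign, was not well above background in controls by the authors' detection p-value, and did not pass. Zfp326, a subunit of a complex that links transcript elongation to splicing, read 737 and 800 with berberine and 9681 and 7576 in controls, 11.2-fold lower. Zfp451, a SUMO ligase, differed by 0.43 ± 0.23 and did not pass.

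**Figure D3:**
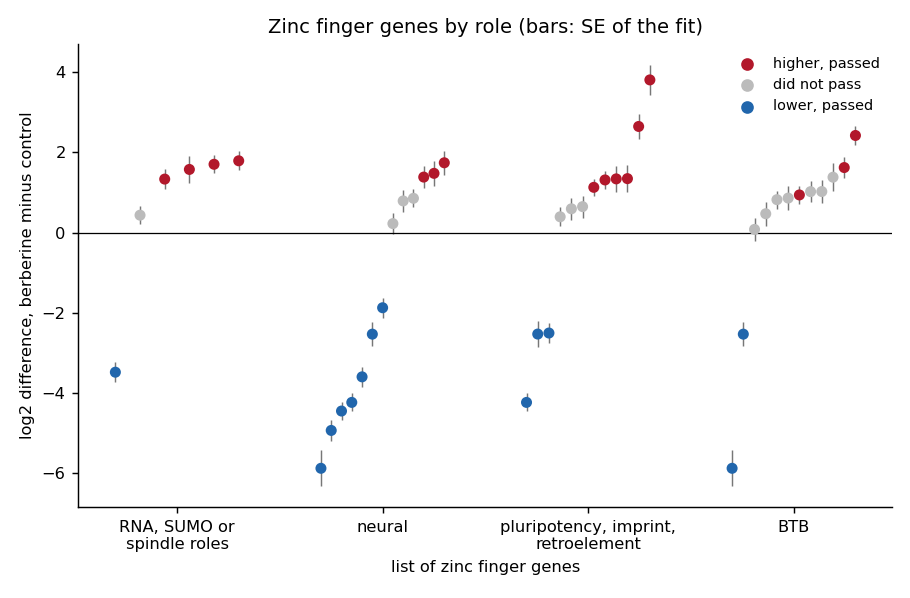
Log2 difference, berberine minus control, of every measured zinc finger gene in the 4 lists, 1 point per gene with the SE of the fit as a bar. In the neural list 7 of 13 genes lie below 0 as passed falls, against 1 of 6, 3 of 12 and 2 of 12 in the RNA and protein, pluripotency and BTB lists. Among other single-symbol probes of the authors' list 45.1% were called lower, and no difference between lists was tested.

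The partners through which KRAB and BTB proteins act moved in both directions, as did the authors' list as a whole. Among its other single-symbol probes 30.1% were called higher and 45.1% lower, and the partner counts below were not tested against these shares. Of 32 listed KRAB corepressor genes 17 were measured under a name, of which 6 rose, 6 fell and 5 did not pass. Ehmt2, the histone H3 lysine methyltransferase G9a, read 239 and 237 with berberine and 21090 and 17289 in controls (log2 −6.33 ± 0.233 SE, adjusted p from limma 0.00136). The SUMO ligase gene Pias4 read 31 and 65 with berberine and 1519 and 1106 in controls, at least 10.8-fold lower. Setdb1, the methyltransferase that TRIM28 recruits, read 297 and 386 with berberine and 5713 and 5098 in controls, a log2 difference of −3.99. Its cofactor Atf7ip read 26620 and 17704 with berberine and 5544 and 4861 in controls, a log2 difference of 2.06. Trim24, a relative of TRIM28, read 15110 and 10634 with berberine and 2644 and 1984 in controls, a log2 difference of 2.47. Setdb1 was singled out after its values were seen, and Trim28 itself is not among the named probes.

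Of 21 listed BTB corepressor genes 13 were measured, of which 4 rose, 5 fell and 4 did not pass. Of its histone deacetylase genes Hdac5, Hdac4, Hdac9 and Hdac3 fell and Hdac7 rose, and Hdac2, on the KRAB list, fell. Hdac5 read 27 and 42 with berberine and 6021 and 4514 in controls, at least 43.5-fold lower, and Hdac4 read 276 and 326 with berberine and 7347 and 5957 in controls (log2 −4.46 ± 0.25 SE). Hdac9, Hdac3 and Hdac2, named after their values were seen, had log2 differences of −3.51, −2.50 and −1.08. Hdac7 read 91465 and 77523 with berberine and 25864 and 21192 in controls, a log2 difference of 1.85. Hic2, a BTB zinc finger gene, read 2390 and 1645 with berberine and 781 and 712 in controls, a log2 difference of 1.41. Adjusted p from limma for Hdac5, Hdac4, Hdac7 and Hic2 ran from 0.00136 to 0.0294.

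Probes of 1 gene did not always move in the same direction. Of 19 zinc finger genes with 2 probes, 8 had probes of opposite sign, and in all 8 both probes carry the same RefSeq accession. Among other genes with several probes in the list, 288 of 604 (47.7%) had opposite signs, against 42.1% for zinc finger genes, and the shares were not tested against each other. Zfp428 read 3547 and 3103 with berberine and 1625 and 1371 in controls on its brighter probe, a rise of 1.15 ± 0.237 on the log2 scale. On its other probe it read 247 and 286 with berberine and 7985 and 6659 in controls, a fall to −4.78 ± 0.241.

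Zfp933 fell on its brightest probe, at 24292 and 23823 with berberine and 117077 and 97545 in controls, and rose on the other, at 4167 and 3827 with berberine and 1089 and 1077 in controls. Zfp871 fell by 4.39 on 1 probe and rose by 0.87 on the other. In Zfp697, whose brightest probe rose by 2.44, the other read 61 and 65 with berberine and 332 and 276 in controls, at least 2.53-fold lower. In these 4 genes both probes passed. In Zfp445, Zfp689, Zfp790 and Zkscan6 the lower probe passed and the higher one did not, with log2 differences of 0.44, 1.26, 0.68 and 0.61 on the higher one.

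**Figure D4:**
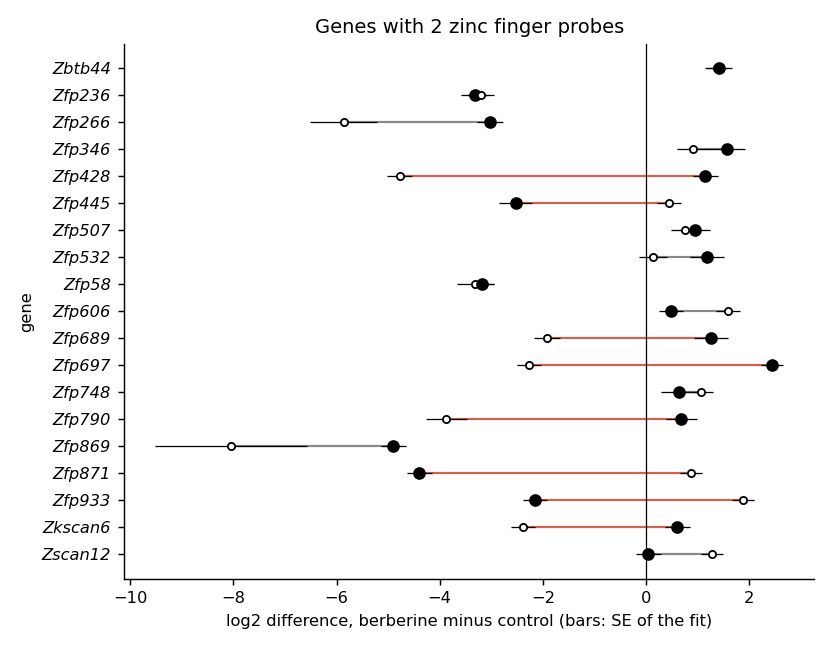
Log2 difference, berberine minus control, on both probes of the 19 zinc finger genes that have 2, with the brighter probe filled, the other open and the SE of the fit as a bar. Red lines join the 8 genes whose probes lie on opposite sides of 0; the other 11 lie on 1 side.

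Direction also went with signal level. The 9190 single-symbol probes of the list were cut into 4 equal bins by mean log2 intensity over all 4 arrays. The share of zinc finger probes higher with berberine was 34.2% in the dimmest bin (76 probes), 55.6% in the second (54), 83.6% in the third (67) and 90.5% in the brightest (42). For other probes the shares were 43.8%, 47.3%, 55.2% and 68.8%. A probe that falls to background has a low mean for that reason, so level and direction are not separate measures here. No test of the difference between zinc finger and other probes was run.

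**Figure D5:**
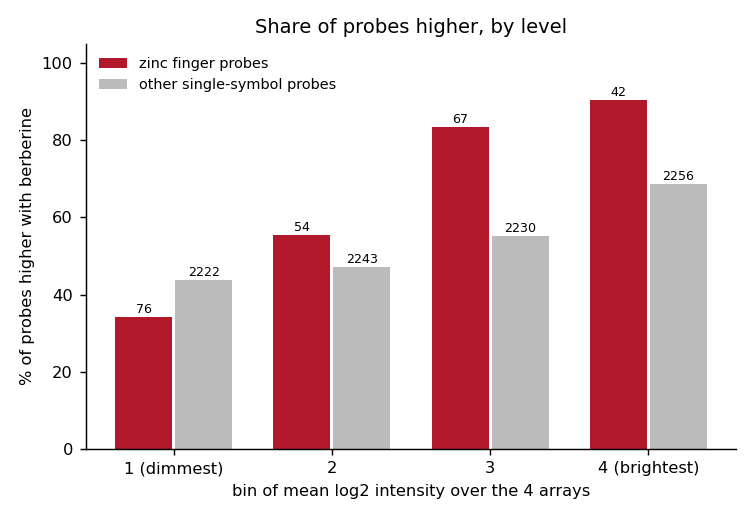
Percentage of probes higher with berberine in each of 4 bins of mean log2 intensity, dimmest at the left, for zinc finger probes (red) left of other single-symbol probes of the list (grey), with the number of probes above each bar. The zinc finger bars run from 34.2% to 90.5%, the grey bars from 43.8% to 68.8%.

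The probe series on the array differed likewise. Of 155 zinc finger probes whose ID begins with PH_mM, 110 were higher with berberine and 45 lower. Of 66 probes with an mMC ID, 32 were higher and 34 lower, and of 18 with an mMR ID, 8 were higher and 10 lower. The share higher among other probes of the list was 62.7% for PH_mM, 42.1% for mMC and 38.9% for mMR. The part of the probe series in the split by gene was not tested.

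Zinc finger genes stand in clusters on mouse chromosomes, and 53 of the 220 lay on chromosome 7. By sign alone 33 of these were higher and 20 lower, with 19 called higher and 20 called lower. Chromosome 13 held 20 zinc finger genes (by sign 15 higher and 5 lower, called 7 and 5). Chromosome 17 held 18 (by sign 10 higher and 8 lower, called 5 and 8). Of all 220 genes 63.6% were higher by sign, with 80 called higher and 80 lower. Direct neighbours in the gene table of GRCm38.p6 were 47 pairs of zinc finger genes. Of these, 20 (42.6%) had the same sign, 16 both higher and 4 both lower, whether or not the genes passed. Among 3604 other pairs of neighbours in the list the share was 53.1%. An example of a run on chromosome 7, chosen after its values were seen, is Zfp74, Zfp568, Zfp14 and Zfp82, with log2 differences of 1.07, 1.34, 0.71 and 1.41, followed by Zfp566 at −3.39. In that run Zfp14 did not pass (adjusted p from limma 0.117).

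In the authors' deposited table of biological processes, the term for transcription from DNA ranks first of 406, with 1008 of its 1885 genes called and a q-value of 3.595e-36. Of the 220 zinc finger genes, 108 (49.1%) stand under that term in the authors' deposited table. The term for regulation of transcription holds 174 of them (79.1%), with 1118 of 2279 genes called and a q-value of 2.563e-21 in the authors' deposited table. The term for negative regulation of transcription by RNA polymerase II holds 13 of them in the authors' deposited table. No term in the authors' deposited table holds the other 20.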

How the data were processed

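RNA of 4 C17.2 samples, 2 per group, was hybridised to single-colour arrays, per the labels. The deposited value table gives a linear intensity per probe; no source used here names the scanner, the background handling or the normalization. The authors' workbook gives, per the file headers, group means of normalized intensity, a detection p-value for each group, a log2 ratio with its p-value, and per term the number and fraction of genes called. Its groups G1 and G3 are unexplained: G1 means differed from the control arrays by a median of 0.273% and G3 means from the berberine arrays by 0.661%, and they were read so. Columns of per-sample values without a sample of this series numbered 0.

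Intensities were floored at 1, taken to log2 and fitted as deposited over all 26423 probes, berberine minus control, by limma 3.58.1 (R 4.3.3; lmFit, then eBayes), with 2-sided Benjamini-Hochberg adjusted p-values and a threshold of 0.05. The script was tested on simulated data. No further normalization was applied because the authors' means are headed normalized; quantile normalization and median centring are alternatives. A gene is represented by its probe with the highest mean. Of the 220 genes 219 were found in the mouse gene table of GRCm38.p6, 6 of them under a newer symbol; the symbols of the files are printed. The number of arrays limits the precision.

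The genes and the 14 gene lists were chosen with earlier results of these data known. Genes named are the 8 highest and 8 lowest called genes whose arrays do not overlap, all measured genes of 4 role lists, genes whose probes differ in sign, the 3 nearest to the authors' threshold, and the 2 highest and 2 lowest called genes of each other list; exceptions are marked, and 1 gene so chosen is not reported here. A planned count of zinc finger domains per protein was not run, since no protein table was used here.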

Additional observations from a re-analysis of the deposited data

How the results depend on the processing

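The sign of the difference was the same for all 239 zinc finger probes under quantile normalization, median centring and a floor of 32. For the first 2 this is not read as a result, since the list admits only probes past the authors' threshold. Other settings were an intensity trend with robust variance, the replicate block, a mild filter that dropped the dimmest 25% of probes and a strict filter that dropped 50%. These leave each fitted difference as it is, so the sign could not turn for the 239 probes, or for the 191 tested under the strict filter. With an array left out the sign could turn. The sign turned for 6 probes without berberine replicate 1 and for 5 without control replicate 2. Among the named genes it turned for Zbtb10 (−0.134 and −0.0903, with a range of −0.134 to 0.29 over the 4 such fits) and Zfp280b (−0.0943 and −0.145, with a range of −0.145 to 0.273). Calls moved more than signs. Over all probes, 3534 were called higher, against 10635 with quantile normalization, 9209 with centring, 5367 with the mild filter, 5939 with the intensity trend, 9850 with quantile normalization and the replicate block together, and 196 to 953 when 1 array was left out. Probes called lower numbered 5236, and 2716 to 3448 without 1 array. Zinc finger probes called higher numbered 86, against 150 with quantile normalization, 142 with centring, 149 with quantile normalization and the block, and 1 to 11 without 1 array. In genes the 80 rises became 140, 132 and 139 in the same order, 121 with the trend and 1 to 11 without 1 array. The 89 falls became 55 with the strict filter, 39 among probes detected in both groups and 48 to 72 without 1 array. In genes the 80 falls became 53 with the strict filter and 45 to 66 without 1 array. The arrays share only replicate numbers: deviations of same-numbered arrays correlated at 0.575 on the deposited scale and −0.0156 after quantile normalization, over 2 pairs. With the replicate block 97 zinc finger probes were called higher and 89 lower, and over all probes 4365 higher and 5431 lower. The replicate block combined with quantile normalization and the restriction to probes detected in both groups were chosen after seeing the data. With 1 array left out, the lone array is assumed to vary like the other group. For probes not above background the bound, not the fitted value, limits what can be said. Causes of these movements were not tested, except that fewer arrays or probes entered some fits.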

Other observations

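Other C2H2 factors with names outside the Zfp, Zbtb, Zscan and Zkscan series also went both ways. Of 107 listed genes, 49 were measured under a name, of which 12 rose, 16 fell and 21 did not pass, with a median log2 difference of 0.60. Among single-symbol probes of the authors' list outside the zinc finger series, 30.1% were called higher and 45.1% lower. Yy1, which encodes a factor that binds many promoters, read 60 and 86 with berberine and 7863 and 6835 in controls, at least 61.2-fold lower. The immediate early gene Egr1 was the highest called of the list, at 163530 and 142536 with berberine and 16415 and 14699 in controls (log2 3.30 ± 0.228 SE, adjusted p from limma 0.0021). Prdm2 read 6359 and 3771 with berberine and 891 and 700 in controls (log2 2.63 ± 0.36 SE, adjusted p from limma 0.0114).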
